A study of Mus musculus with 6 samples.

Results

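The integrated stress response is read here through 10 genes of its transcriptional arm, Atf4, Ddit3, Atf5, Asns, Psat1, Phgdh, Ppp1r15a, Trib3, Chac1 and Sesn2, chosen by symbol from the 46333 genes listed for each library. The data are RNA-seq of mouse bone marrow cells in 6 libraries. CUMS marrow (3 libraries) came from mice put through chronic unpredictable mild stress, a procedure of changing mild stressors, for 4 weeks to induce depression-like states. Control marrow (3 libraries) carries the label negative control. Strain, age and the number of animals behind a library are not given in the sources used here, and the comparison addresses which transcripts of the marrow differ after the stress.

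In the integrated stress response, kinases that sense amino acid shortage, unfolded proteins, heme shortage or double-stranded RNA phosphorylate the translation factor eIF2. Protein synthesis then slows, while the mRNAs of ATF4, ATF5 and a few other proteins, which carry upstream reading frames, are translated more. ATF4 and CHOP, the product of Ddit3, switch on genes of amino acid supply, feedback and cell death. In marrow the heme-sensing kinase Eif2ak1 is known for matching globin synthesis to heme in red cell precursors. RNA levels do not show how much of a protein is made.

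The files give FPKM, read fragments scaled for transcript length and sequencing depth, without counts. Depth is therefore unknown, and precision is given by how far the 3 libraries of each group lie apart. Between 21334 and 23224 entries were above 0 per library. The labels do not say that the libraries came from separate animals, and the p-values then measure only the spread between these samples. A digit in the file headers, of unstated meaning and called the header code here, is 1 for replicate 1 of both groups and 2 for the other 4 libraries, and 3747 of 12302 tested genes differed by it. Red cell and neutrophil markers fitted the tissue label, with none of the 8 erythroblast markers under 41.6 FPKM and none of the 6 neutrophil markers under 57.4 FPKM in any library.

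None of the 9 tested genes passed the test between CUMS and control marrow when group was the only term. Chac1 was nearest to it and was lower in CUMS marrow by 0.61 on the log2 scale, followed by Atf5, lower by 0.51. The values of both were below every control library in all 3 CUMS libraries. The mean levels of Atf4, Phgdh, Ppp1r15a and Asns lay above control in CUMS marrow, with overlapping groups. Tests were limma's on log2(FPKM + 1) with Benjamini-Hochberg adjustment over all 12302 genes that reached 1 FPKM in at least 3 libraries, and an adjusted p under 0.05 was required. Trib3 did not reach that level and was not tested.

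Of all tested genes 0.618% rose and 0.455% fell in CUMS marrow, against 0 of the 9 in each direction. At an unadjusted limma p under 0.05, 3 of the 9 were lower (Chac1, Atf5 and Sesn2) and 0 were higher, against 15.4% of all tested genes in either direction and 8.41% that were lower. The groups did not overlap for the same 3 genes, all lower in CUMS, while 12.1% of all tested genes lay wholly lower and 10% wholly higher. With the replicate number as a block Chac1 and Atf5 fell (limma adjusted p = 0.0221 and 0.0202), but replicates 2 and 3 correlated across the groups as much when their numbers were crossed, so the block is read here as an alternative and not as a known pairing. That made 2 of 9 lower and 0 higher, where 4.31% of all tested genes fell and 3.49% rose. With the header code as a term in place of the block 2 fell, Chac1 and Atf5, and 2 rose, Atf4 and Phgdh, while 7.31% of all tested genes fell and 6.06% rose. In the 4 libraries of header code 2 alone 3 rose (Atf4, Phgdh and Ppp1r15a) and 3 fell (Chac1, Atf5 and Sesn2), beside 8.82% and 8.84% of all tested genes. With quantile normalization 0 of the 9 rose and 1 fell (Chac1), beside 0.878% and 0.74%. The median log2 change of the 9 was −0.03, beside −0.0017 for all tested genes.

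**Figure D1:**
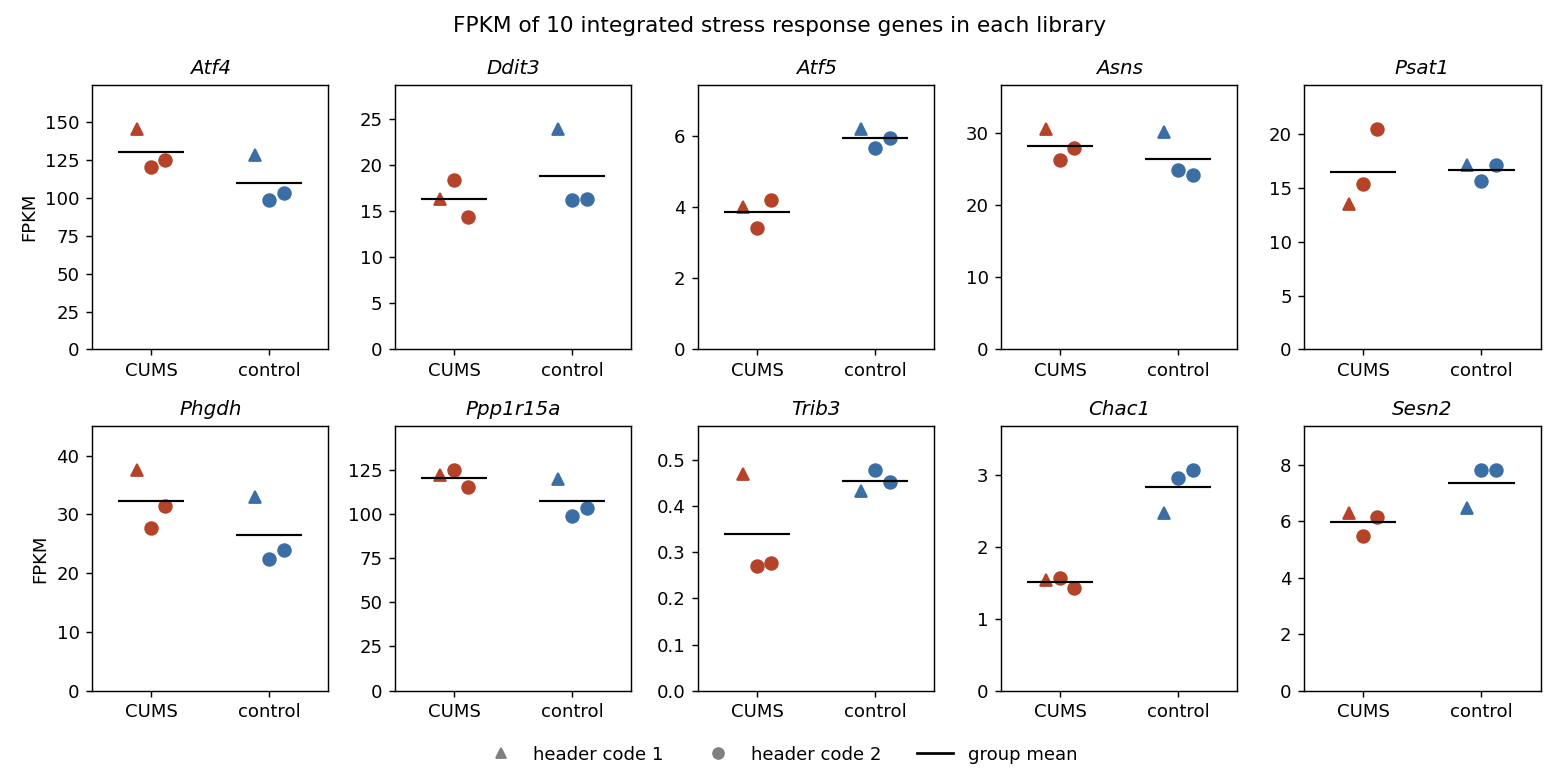
FPKM (vertical axes, each from 0) of the 10 genes in the CUMS libraries, on the left of each panel, and the control libraries, on the right; symbols are single libraries, triangles carry header code 1 and circles header code 2, and bars are group means of 3 libraries. For Chac1, Atf5 and Sesn2 all CUMS points lie below all control points, and for Atf4, Asns and Phgdh the triangle is the highest point of each group.

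The transcription factors came at very different levels. Atf4 (chromosome 15, 80255184 to 80257545, GRCm38), the main effector of the response, was at 146, 120 and 125 FPKM in CUMS replicates 1, 2 and 3, against 128, 98.6 and 103.6 FPKM in the control replicates. The groups overlapped, because control replicate 1 was above CUMS replicates 2 and 3, while within each header code every CUMS library was above every control library. The means were 130.3 ± 13.4 and 110.1 ± 15.9 FPKM (SD, n = 3 libraries each), with a log2 change of 0.25 (SE 0.13, 95% interval −0.06 to 0.55, limma adjusted p = 0.423). With the header code as a term the adjusted p was 0.0324 for the same change, and with the replicate block it was 0.0670.

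Ddit3 (chromosome 10, 127290793 to 127296291) encodes CHOP, a factor that drives cell death genes when stress lasts. Its values were 16.3, 18.4 and 14.4 FPKM in CUMS marrow, against 23.9, 16.2 and 16.3 FPKM in control marrow. Control replicate 1 alone stood above all CUMS libraries, and the other 2 control libraries lay among them. The log2 change was −0.17 (SE 0.17, 95% interval −0.56 to 0.21, limma adjusted p = 0.681), and it was −0.52 in the libraries of header code 1 but −0.0006 in those of code 2. Its exons overlap those of Mars1, a tRNA synthetase gene on the opposite strand, over 68 of 1713 bases.

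Atf5 (chromosome 7, 44812256 to 44816658) encodes a factor related to ATF4, with translation controlled in the same way. Its values were 4.00, 3.43 and 4.20 FPKM in CUMS marrow, against 6.21, 5.68 and 5.95 FPKM in control marrow. Every CUMS library was below every control library, by a gap larger than the range within either group. The means were 3.88 ± 0.40 and 5.95 ± 0.26 FPKM (SD, n = 3 libraries each), a ratio of 0.652, and the log2 change was −0.51 (SE 0.11, 95% interval −0.76 to −0.26, limma adjusted p = 0.0759). It was alike by header code, −0.53 in code 1 and −0.51 in code 2. The call missed the threshold with group only and passed it with the block (limma adjusted p = 0.0202) and with the header code as a term (0.0115).

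Without strand in the counting, which is not stated, reads of Atf5 cannot be told apart from those of Nup62 and Il4i1 over the 82 of 1993 exon bases they share on opposite strands. Il4i1, which encodes an amino acid oxidase, was also lower in CUMS marrow, at 3.57, 3.24 and 4.19 FPKM, against 4.30, 6.09 and 5.91 FPKM in control marrow (limma adjusted p = 0.202). Nup62, a nuclear pore gene, was at 24.1 ± 4.03 FPKM in CUMS marrow and 21.1 ± 2.45 FPKM in control marrow (SD, n = 3 libraries each). The part of these genes in the values of Atf5 was not tested.

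None of the 3 enzymes of amino acid synthesis passed the test with group only, and differences between them were not tested. Asns (chromosome 6, 7675165 to 7693209), which makes asparagine and is a standard readout of ATF4, was at 30.6, 26.3 and 27.9 FPKM in CUMS marrow, against 30.1, 24.8 and 24.2 FPKM in control marrow. The groups overlapped, and the log2 change was 0.10 (SE 0.11, 95% interval −0.16 to 0.37, limma adjusted p = 0.744). Phgdh (chromosome 3, 98313171 to 98339969), the first enzyme of serine synthesis, was at 37.5, 27.8 and 31.4 FPKM in CUMS marrow, against 33.0, 22.5 and 24.0 FPKM in control marrow. As for Atf4, the CUMS libraries were higher within each header code but not across them. The log2 change was 0.28 (SE 0.17, limma adjusted p = 0.479), 0.18 in code 1 and 0.33 in code 2, and the adjusted p was 0.0429 with the header code as a term and 0.0612 with the replicate block.

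Processed copies of Phgdh are common in the mouse genome: 19 annotated genes matched its transcript at 90% identity or more over at least 300 bases. Of those listed in the files the highest, Gm7901, was at 0.303 to 1.25 FPKM, beside 22.5 to 37.5 FPKM for Phgdh itself. Psat1 (chromosome 19, 15905123 to 15925059), the second enzyme of serine synthesis, was at 13.5, 15.3 and 20.5 FPKM in CUMS marrow, against 17.2, 15.7 and 17.1 FPKM in control marrow. The CUMS libraries spread on both sides of the controls, with the lowest and the highest value of all 6 among them. The log2 change was −0.03 (SE 0.15, 95% interval −0.38 to 0.31, limma adjusted p = 0.943), and its sign differed between code 1 (−0.32) and code 2 (0.11).

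The promoter of Asns is shown because it holds the composite C/EBP-ATF element through which ATF4 is known to act on this gene, and it is set beside that of Chac1, the gene nearest to the threshold. The windows are the 250 bases before the RefSeq start (GRCm38.p6), chr6:7693210-7693459 on the minus strand for Asns and chr2:119350992-119351241 on the plus strand for Chac1. Capitals mark the match to TGATGNAA, the only motif searched, on both strands.
Asns: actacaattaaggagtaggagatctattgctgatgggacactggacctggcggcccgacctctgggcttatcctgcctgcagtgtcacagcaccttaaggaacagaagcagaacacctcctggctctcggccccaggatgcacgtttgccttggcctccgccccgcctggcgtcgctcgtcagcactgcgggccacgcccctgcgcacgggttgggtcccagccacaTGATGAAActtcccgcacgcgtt
Chac1: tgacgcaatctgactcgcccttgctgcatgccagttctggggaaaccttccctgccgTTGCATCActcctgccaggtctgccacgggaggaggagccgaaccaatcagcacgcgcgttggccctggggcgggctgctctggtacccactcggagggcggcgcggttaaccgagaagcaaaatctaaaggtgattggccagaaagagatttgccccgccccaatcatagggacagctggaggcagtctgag
The match lies 23 to 16 bases before the start of Asns, reading TGATGAAA. For Chac1 it lies 193 to 186 bases before the start and on the opposite strand, so the printed strand reads TTGCATCA. These 2 of the 10 genes held the match, and so did 3.91% of the 27025 genes with such a window. Of these genes Asns had a log2 change of 0.10 and Chac1 one of −0.61, and that difference was not tested.

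Feedback on the response runs through Ppp1r15a and Trib3. Ppp1r15a (chromosome 7, 45522917 to 45526268) encodes GADD34, which brings a phosphatase to eIF2 and so restores translation. Its values were 121.9, 124.7 and 115.1 FPKM in CUMS marrow, against 120.0, 98.7 and 103.4 FPKM in control marrow. Control replicate 1 lay among the CUMS libraries and the other 2 controls lay below them. The log2 change was 0.17 (SE 0.10, 95% interval −0.07 to 0.41, limma adjusted p = 0.489), and it was 0.02 in code 1 and 0.24 in code 2. In the 4 libraries of code 2 alone it passed the test (limma adjusted p = 0.0375).

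Trib3 (chromosome 2, 152337425 to 152344060), a pseudokinase that restrains ATF4 and CHOP, was the lowest of the 10. It was at 0.471, 0.271 and 0.277 FPKM in CUMS marrow, against 0.433, 0.478 and 0.454 FPKM in control marrow. The groups overlapped through CUMS replicate 1, which carried almost the same value as the controls. With a filter of 0.1 FPKM, which admitted it, the log2 change was −0.12 (limma adjusted p = 0.657).

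Chac1 (chromosome 2, 119351242 to 119354326) encodes an enzyme that degrades glutathione, and it is induced late in the response through ATF4 and CHOP. It was at 1.55, 1.57 and 1.43 FPKM in CUMS marrow, against 2.47, 2.96 and 3.07 FPKM in control marrow. The CUMS libraries were close together, and the lowest control was well above the highest of them. The means were 1.52 ± 0.071 and 2.83 ± 0.317 FPKM (SD, n = 3 libraries each), a ratio of 0.535, while the log2 change was −0.61 (SE 0.12, 95% interval −0.87 to −0.34, limma adjusted p = 0.0630). It was −0.45 in code 1 and −0.68 in code 2. The pseudocount of 1 shrinks the change of a gene at this level: with 0.1 it was −0.86.

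Chac1 also passed the test with the header code as a term (limma adjusted p = 0.00855), with quantile normalization (0.0459) and without control replicate 1 (0.0435). Over the 14 other settings its adjusted p ran between 0.00855 and 0.268, and it was lower in CUMS in each. Set against Atf4 in the same library, which cancels any scaling of libraries, Chac1 stood at 1.06, 1.30 and 1.15 FPKM per 100 FPKM of Atf4 in CUMS marrow, against 1.93, 3.00 and 2.96 in control marrow. The same ratio for Atf5 was 2.75, 2.85 and 3.36 in CUMS marrow, against 4.84, 5.76 and 5.75 in control marrow. Neither ratio overlapped between the groups, and in both the control library of header code 1 was the lowest control. The levels of the 3 genes given above already fix that separation, so the ratios are no separate check. The mean of Atf4 was itself higher in CUMS marrow, which lowers both ratios there.

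Sesn2 (chromosome 4, 132492804 to 132510456) encodes a leucine sensor that holds back the growth kinase complex mTORC1. It was at 6.28, 5.48 and 6.16 FPKM in CUMS marrow, against 6.48, 7.80 and 7.80 FPKM in control marrow. The groups did not overlap, but CUMS replicate 1 and control replicate 1 were close. The log2 change was −0.26 (SE 0.11, 95% interval −0.52 to −0.0007, limma adjusted p = 0.323), with −0.04 in code 1 and −0.37 in code 2. In the libraries of code 2 alone Sesn2 fell (limma adjusted p = 0.0366).

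**Figure D2:**
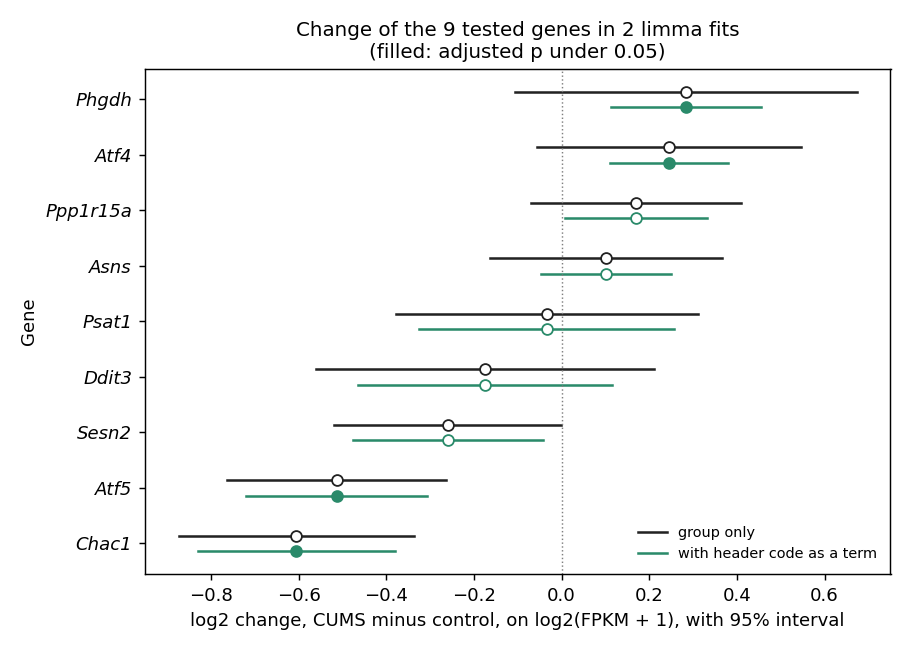
Log2 change of the 9 tested genes, CUMS minus control, on log2(FPKM + 1) (horizontal axis) with its 95% interval in 2 limma fits, group only and with the header code as a term; filled points have an adjusted p under 0.05. The points are the same in both fits and the intervals are narrower with the header code, where Chac1 and Atf5 are called lower and Atf4 and Phgdh higher.

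The header code moved some of the 10 genes as much as the stress groups differed. In the fit with both terms Phgdh was higher in code 1 than in code 2 by 0.41 (limma adjusted p = 0.00771), Atf4 by 0.29 (0.0110) and Asns by 0.23 (0.0380). Chac1 differed between the codes by −0.09 (adjusted p = 0.530) and Atf5 by 0.07 (0.602), and both were lower in CUMS within each code. As each group holds 1 library of code 1 and 2 of code 2, the code is balanced between the groups.

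**Figure D3:**
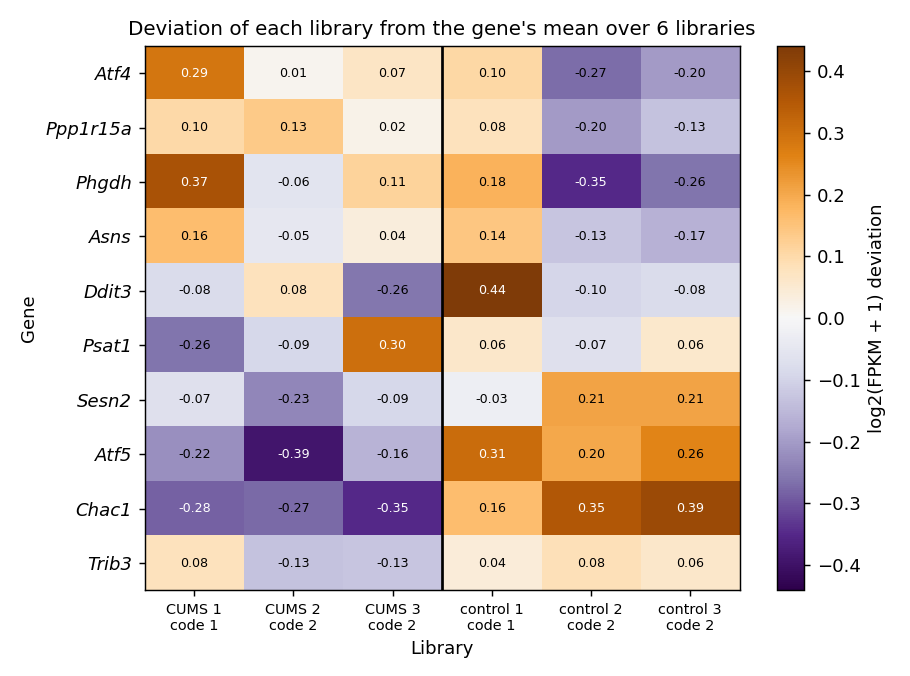
Deviation of each library (columns, CUMS left of the line and control right of it, with the header code under each) from the gene's mean log2(FPKM + 1) over the 6 libraries, for the 10 genes in order of control level (rows). Chac1 runs between −0.35 and −0.27 in CUMS libraries and between 0.16 and 0.39 in control libraries, while the Phgdh and Atf4 rows have their highest value in CUMS replicate 1.

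FPKM is scaled by length, which lets the levels of the 10 genes be ordered. Over the 6 libraries the mean levels were 120.2 FPKM for Atf4, 114.0 for Ppp1r15a, 29.3 for Phgdh, 27.3 for Asns, 17.6 for Ddit3, 16.6 for Psat1, 6.67 for Sesn2, 4.91 for Atf5, 2.17 for Chac1 and 0.397 for Trib3. Neighbours in this order that did not differ beyond their spread were Atf4 and Ppp1r15a, Phgdh and Asns, and Ddit3 and Psat1, where the first was higher in 4 of 6 libraries in each pair. The other neighbours kept their order in 6 of 6 libraries.

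The genes whose pattern was most like that of Chac1 were Adgre5, an adhesion receptor of leukocytes, Ypel3 and Fam234a. Their log2 deviations from their own means differed from those of Chac1 by 0.031, 0.041 and 0.052 on average over the 6 libraries. All 3 were lower in CUMS marrow, which their choice by likeness to Chac1 fixes. Adgre5 was at 56.8 ± 2.00 FPKM in CUMS marrow and 88.3 ± 4.22 FPKM in control marrow (SD, n = 3 libraries each). Among the other tested genes of the 10, Atf5 was nearest to Chac1, in place 261 of 12301. Sesn2 came next of the 10, in place 722, and places of genes from the other lists are not given. Atf5 and Sesn2 both lay wholly lower in CUMS marrow, like Chac1 and 12.1% of all tested genes, so these places partly restate the group difference.

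The kinases and their target showed no call with group only: 0 of 14 tested genes of eIF2 control rose and 0 fell, with a median log2 change of 0.13. At an unadjusted limma p under 0.05, 5 of the 14 were higher and 0 lower, beside 7.02% and 8.41% of all tested genes. Eif2ak1, the heme-regulated kinase, was the most abundant kinase at 80.4 ± 5.56 FPKM in CUMS marrow and 79.0 ± 5.74 FPKM in control marrow (log2 change 0.03, limma adjusted p = 0.937). Eif2ak3, the kinase of the endoplasmic reticulum known as PERK, was at 10.8 ± 0.933 FPKM in CUMS marrow and 11.5 ± 1.55 FPKM in control marrow (limma adjusted p = 0.808). Eif2ak4, the amino acid sensor GCN2, was at 3.50 ± 0.393 FPKM in CUMS marrow and 3.11 ± 0.409 FPKM in control marrow (limma adjusted p = 0.688). Eif2ak2, the interferon-inducible kinase PKR, was at 7.29 ± 1.43 FPKM in CUMS marrow and 9.11 ± 1.78 FPKM in control marrow (SD, n = 3 libraries each; limma adjusted p = 0.510, with the header code as a term 0.0335).

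Subunits of eIF2 and of its exchange factor eIF2B were among those with the smallest p. Eif2b3 was at 7.29 ± 0.321 FPKM in CUMS marrow and 5.04 ± 0.672 FPKM in control marrow (log2 change 0.46, limma adjusted p = 0.117), and Eif2b1 at 13.3 ± 1.28 FPKM in CUMS marrow and 10.4 ± 1.44 FPKM in control marrow (0.33, adjusted p = 0.264). These 2 of the 14 genes rose with the replicate block (limma adjusted p = 0.0314 and 0.0478) and 0 fell. Of all tested genes 3.49% rose and 4.31% fell with the block. With the header code as a term 5 of the 14 rose and 1 fell (Eif2ak2), beside 6.06% and 7.31% of all tested genes. For Eif2s3x the log2 change was 0.32 (limma adjusted p = 0.165, with the header code as a term 0.0295). For Eif2s2 it was 0.39 (adjusted p = 0.180, with the header code 0.0373).

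Other transcription factors and feedback genes of the response gave the only calls among the ATF4 lists: 2 of 15 tested rose and 0 fell. The shares over all tested genes were 0.618% and 0.455%. Ddit4, an inhibitor of mTORC1 that glucocorticoids also induce, was at 20.9, 21.7 and 20.6 FPKM in CUMS marrow, against 11, 12.1 and 12.7 FPKM in control marrow (log2 change 0.77, SE 0.092, limma adjusted p = 0.0120). Atf3, a stress factor that is also an immediate-early gene, was at 4.39, 5.77 and 5.59 FPKM in CUMS marrow, against 2.88, 2.61 and 2.79 FPKM in control marrow (0.73, SE 0.12, adjusted p = 0.0410). Neither gene overlapped between the groups. Trib1, a relative of Trib3, had a log2 change of 0.65 (limma adjusted p = 0.0561, with the replicate block 0.00644), and Nupr1, a stress-induced chromatin factor, one of −0.61 (adjusted p = 0.131, with the block 0.0254). With the block 3 genes of the list rose and 3 fell, beside 3.49% and 4.31% of all tested genes. When 1 library was left out, the log2 change of Ddit4 stayed between 0.72 and 0.81 and that of Atf3 between 0.67 and 0.83, while the limma adjusted p ran between 0.0170 and 0.0865 for Ddit4 and between 0.0399 and 0.223 for Atf3. Neither was called without CUMS replicate 2, CUMS replicate 3, control replicate 2 or control replicate 3, settings in which 9 to 19 of all tested genes rose, against 76 with all 6 libraries.

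Of the other enzymes of serine, one-carbon and amino acid synthesis 0 of 10 tested rose or fell with group only (median log2 change 0.14), 4 were higher at an unadjusted limma p under 0.05 (7.02% of all tested genes), and 2 rose with the block (3.49%). Mthfd1l, a mitochondrial enzyme of the folate cycle, was at 15.5 ± 0.532 FPKM in CUMS marrow and 10.9 ± 0.576 FPKM in control marrow (log2 change 0.48, limma adjusted p = 0.0595, with the block 0.0156), and Mthfd1, its cytosolic relative, had a change of 0.44 (adjusted p = 0.151, with the block 0.0167). Aldh18a1, of proline synthesis, and Shmt1, which links serine to folate, had changes of 0.27 and 0.35 (adjusted p = 0.205 and 0.225).

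Amino acid transporters gave 0 calls in either direction among 8 tested, with a median log2 change of 0.03 and 1 lower at an unadjusted limma p under 0.05 (8.41% of all tested genes). Slc1a5, a glutamine carrier, was at 93.1 ± 4.89 FPKM in CUMS marrow and 116.6 ± 9.54 FPKM in control marrow (log2 change −0.32, limma adjusted p = 0.184), and Slc7a1, a carrier of arginine and lysine, had a change of 0.40 (adjusted p = 0.335, with the block 0.0360). Slc43a1 and Slc6a9 had changes of 0.09 and 0.10 (adjusted p = 0.754 and 0.786). Cytosolic aminoacyl-tRNA synthetases with the tRNA exporter Xpot gave 0 calls among 14 tested, with 4 higher at an unadjusted limma p under 0.05 (7.02% of all tested genes), 12 log2 changes above 0 and a median of 0.16. Of all tested genes 6116 were above 0. Eprs was at 19.4 ± 1.31 FPKM in CUMS marrow and 14.6 ± 0.745 FPKM in control marrow (0.38, limma adjusted p = 0.114). With the block 3 of the 14 rose, beside 3.49% of all tested genes: Eprs, Iars and Xpot (limma adjusted p = 0.0254, 0.0410 and 0.0466).

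Immediate-early genes, which many stimuli switch on within minutes, moved beside these. With group only 4 of 14 tested rose (Jun, Fos, Egr1 and Dusp1) and 0 fell, beside 0.618% and 0.455% of all tested genes. The median log2 change of the 14 was 0.48. Fos was at 328.7 ± 5.24 FPKM in CUMS marrow and 174.8 ± 13.7 FPKM in control marrow (log2 change 0.91, limma adjusted p = 0.00887). At an unadjusted limma p under 0.05, 10 of the 14 were higher (7.02% of all tested genes), with the replicate block 9 rose (3.49%), and with the header code as a term 10 rose (6.06%). When 1 library was left out, the log2 change of Fos stayed between 0.85 and 0.96 and that of Jun between 0.85 and 0.94. None of the list passed the threshold without CUMS replicate 2, CUMS replicate 3 or control replicate 3, and 2 did without control replicate 2. Their part in the values of Atf3, Ddit4 and Ppp1r15a was not tested.

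**Figure D4:**
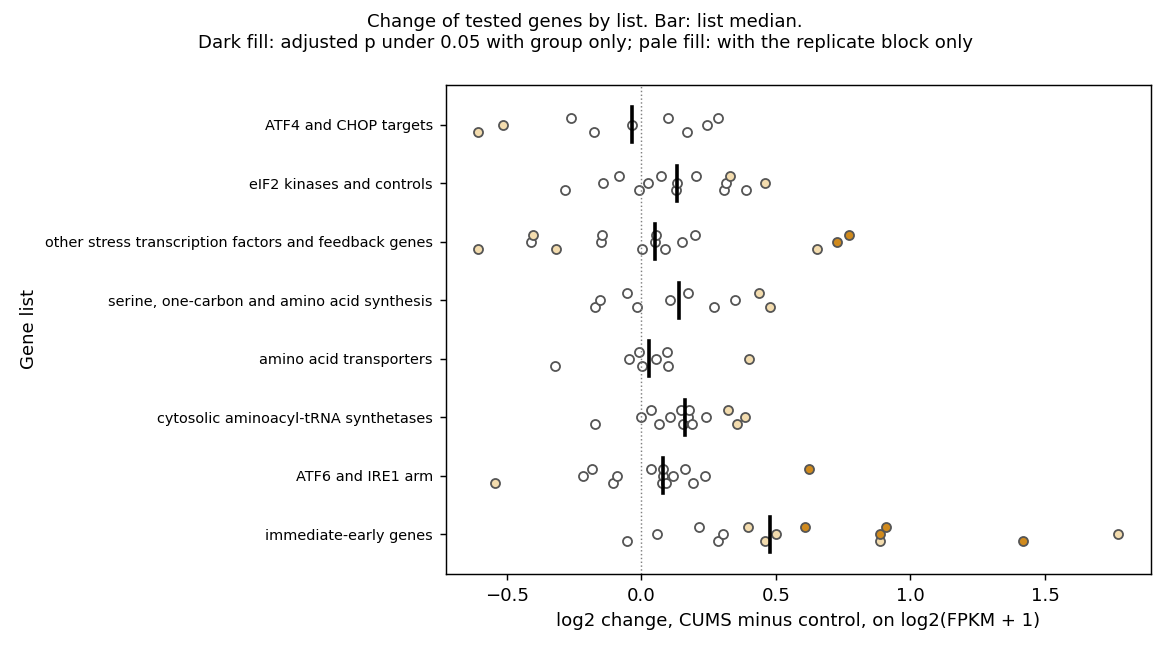
Log2 change, CUMS minus control, on log2(FPKM + 1) (horizontal axis) of the tested genes of each list (rows, ATF4 and CHOP targets being the 9 tested genes described above); bars are list medians, dark points have a limma adjusted p under 0.05 with group only and pale points with the replicate block only. Dark points stand for 2 genes of the stress factors, 1 of the ATF6 and IRE1 arm and 4 immediate-early genes, all higher in CUMS marrow.

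Marrow is a mixture, and in bulk RNA fewer cells of a type and less RNA per cell cannot be told apart, so markers of the cell types are given beside the lower Chac1 and Atf5. Of 6 monocyte markers 3 fell and 0 rose, where 0.455% of all tested genes fell and 0.618% rose. The summed level of the 6 was 871 to 965 FPKM in CUMS marrow, against 869 to 1106 FPKM in control marrow. Most of that sum is Ly6c2, with a log2 change of 0.05 (limma adjusted p = 0.914), while 5 of the 6 markers lay below 0 and their median was −0.56. Cx3cr1, a chemokine receptor, fell to 5.17 ± 0.357 FPKM in CUMS marrow, against 12.3 ± 1.35 FPKM in control marrow (SD, n = 3 libraries each; limma adjusted p = 0.00817). Of 6 eosinophil markers 4 rose and 0 fell (0.618% and 0.455% of all tested genes). Their sum was 1494 to 1537 FPKM in CUMS marrow, against 649 to 891 FPKM in control marrow. Of 6 B-lineage markers none passed the test, and the sum was 404 to 455 FPKM in CUMS marrow, against 481 to 571 FPKM in control marrow. In the erythroblast list 0 of 8 markers passed, and the sum was 119799 to 148193 FPKM in CUMS marrow, against 103756 to 122771 FPKM in control marrow. Of the promyelocyte, neutrophil, T and NK cell and megakaryocyte lists no marker passed. In the stroma and osteoblast list 1 of 6 rose (0.618% of all tested genes). Of the plasma cell list 4 of 6 were tested and none passed. These marker calls are those with group only. With the replicate block 4 monocyte, 2 B-lineage and 1 neutrophil marker fell, beside 4.31% of all tested genes. In that fit 5 eosinophil, 3 stroma, 1 promyelocyte and 1 plasma cell marker rose, beside 3.49%. With the header code as a term 4 monocyte, 4 B-lineage, 2 plasma cell and 1 neutrophil marker fell, beside 7.31% of all tested genes. There 5 eosinophil, 3 promyelocyte, 3 stroma, 1 plasma cell and 1 erythroblast marker rose, beside 6.06%. No marker of any list was at 0 in all libraries, and the part of these cell types in the values of the 10 genes was not tested.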

How the data were processed

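Bone marrow RNA (TRIzol, TruSeq kit, paired reads of 151 bp) was processed by the authors. Named without roles in the submitters' processing notes are HISAT2 2.1, featureCounts 1.6.4, DESeq2 2.11.40.6, cutadapt 1.16.5, bcl2fastq 2.19 and the mm10 build; whether strand was used is not given in the sources used here. The deposited values are FPKM by their form: they are not whole, and value times length in kilobases (longest GENCODE M21 transcript, 34632 genes) sums to 888557 to 935805 per library. No scaling between libraries is recorded, and counts were not recovered.

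limma 3.58.1 (R 4.3.3) with a trend was fitted to log2(FPKM + 1), with group as the only term. Tested were the 12302 genes that 3 or more of the 6 libraries held at 1 FPKM or above. The fit was also run on simulated data with independent noise, as a check of the code only, and its recovery there is not given here. Intervals are 95% limma intervals. Tables and plots used Python 3.11.15 with pandas 2.3.3 and matplotlib 3.10.9, copies were searched with blastn 2.17.0 (at least 90% identity over 300 bases), and coordinates and promoters are RefSeq's on GRCm38.p6 (10 of 10 genes matched). The titles carry replicate numbers. Between same-numbered libraries, deviations from the group mean had correlations (across genes) of 0.689, 0.452 and 0.363, all over 0.1, but replicates 2 and 3 crossed gave 0.362 and 0.459, so beyond the header code no pairing was seen. The block and the header code were alternatives, with others of pseudocount, filter, scaling and left-out libraries. Members and lists were chosen with earlier results of these data known. Named were the 10 genes, the 4 eIF2 kinases, up to 4 genes with the smallest p per list, and the 3 genes most like Chac1 in mean absolute difference of log2 deviations; Il4i1, Nup62, Mars1 and Gm7901 were added for shared sequence, and Gdf15, Gpt2, Slc7a3, Egr2 and Cx3cr1 after their values were seen. Of 19 stress factor symbols 18 were found.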

Additional observations from a re-analysis of the deposited data

How the results depend on the processing

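Chac1, Atf5, Sesn2, Atf4, Phgdh, Ppp1r15a and Asns kept their direction under all 14 alternatives. Chac1 passed the threshold in 5 of them, Atf5 in 3, Atf4 and Phgdh in 2 each, and Ppp1r15a and Sesn2 in 1 each. The log2 change of Psat1 turned to 0.11 with header code 2 only, and ran between −0.19 and 0.088 when 1 library was left out. That of Ddit3 ran between −0.27 and 0.0021, turning without control replicate 1; the cause was not tested.

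Of the 10 genes, called with group only 0 higher and 0 lower, the replicate block gave 2 lower, the header code as a term 2 higher and 2 lower, header code 2 only 3 higher and 3 lower, and quantile normalization 1 lower. Leaving out 1 library gave 0 to 1 lower. Over all genes, 76 rose and 56 fell with group only, 429 and 530 with the block, 746 and 899 with the header code, 1085 and 1088 with code 2 only, and 21 and 22 with no filter. Scaling to the same total called 65 higher and 101 lower (39.2% higher, against 57.6% with group only), and quantile normalization 108 and 91. Leaving out 1 library gave 9 to 160 higher and 7 to 102 lower. Genes of the other lists that rose and fell numbered 7 and 0 with group only, 21 and 4 with the block, 26 and 8 with the header code, 29 and 9 with code 2 only, 3 higher with no filter, and 0 to 10 higher when 1 library was left out. The 7 include Atf3 and Ddit4; the count was 0 without CUMS replicate 2, CUMS replicate 3 or control replicate 3, and 2 without control replicate 2. Depth is unknown.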

Other observations

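The ATF6 and IRE1 arm of the unfolded protein response works beside the ATF4 arm. Its 15 tested genes had a median log2 change of 0.08. Of these genes 1 was called higher in CUMS marrow and 0 lower, beside 0.618% and 0.455% of all tested genes. The gene was Dnajb9, a chaperone helper made on command of XBP1, at 15.5 ± 0.380 FPKM in CUMS marrow and 9.74 ± 1.06 FPKM in control marrow (SD, n = 3 libraries each; log2 change 0.62, limma adjusted p = 0.0385). When 1 library was left out its log2 change stayed between 0.54 and 0.68, and it passed the threshold only without control replicate 1 (limma adjusted p 0.0418 to 0.191 over the 6 settings). Hspa5, the main chaperone of the endoplasmic reticulum, was at 150.7 ± 2.79 FPKM in CUMS marrow and 128.5 ± 18.3 FPKM in control marrow (0.24, adjusted p = 0.378), and Sdf2l1 had a change of −0.18 (adjusted p = 0.492). Ern1, which encodes the sensor IRE1, was at 5.18 ± 1.69 FPKM in CUMS marrow and 8.17 ± 3.13 FPKM in control marrow (−0.54, limma adjusted p = 0.456, with the replicate block 0.0182).

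Of the genes on the lists 12 were below the level required for the test. The groups did not overlap for 4 of them, 3 wholly higher in CUMS marrow (Gdf15, Slc7a3 and Egr2) and 1 wholly lower (Gpt2). How often genes at such low levels separate was not counted, so the 4 are not read as a result. Slc7a3 lay near the floor, between 0 and 0.039 FPKM over the 6 libraries. Gdf15, a secreted stress hormone known as an ATF4 and CHOP target, was at 0.732, 0.626 and 0.499 FPKM in CUMS marrow, against 0.455, 0.143 and 0.225 FPKM in control marrow. Gpt2, which makes glutamate and pyruvate from alanine, was at 0.223, 0.225 and 0.226 FPKM in CUMS marrow, against 0.369, 0.353 and 0.283 FPKM in control marrow.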
